A study of Homo sapiens with 24 samples.

Results

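FGFR3, a receptor of fibroblast growth factors, and 9 genes whose transcripts follow signalling through the MAPK cascade were examined in human bladder cancer lines, RT112 and SCaBER. The 10 genes (FGFR3, DUSP6, DUSP4, SPRY2, SPRY4, SPRED1, ETV4, ETV5, PHLDA1 and EGR1) were taken by their symbols from the 58721 genes of the count table, and all 10 were found. RT112 is classified as luminal papillary (LumP) and SCaBER as basal/squamous (Ba/Sq). Each line was transfected in a lipid reagent with siControl, with siZBED2-1 or siZBED2-2, with siFOXA1, or with siFOXA1 plus one of the ZBED2 siRNAs (double knock-down). There were 24 libraries in 12 groups of 2, prepared from the 3′ ends of transcripts. The labels give control siRNA number 2 and FOXA1 siRNA number 1 in every library that carries one, so a single FOXA1 siRNA stands behind every FOXA1 result. RT112 cells grew in RPMI and SCaBER cells in DMEM, both with fetal serum, so the medium and the line cannot be told apart.

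FGFR3 is a receptor tyrosine kinase. When a fibroblast growth factor binds, or when the receptor is mutated or fused to a partner, it signals through the adaptor FRS2 and through RAS, RAF, MEK and ERK, the MAPK cascade. ERK raises the transcription of ETS factors such as ETV4 and ETV5 and of immediate early genes such as EGR1, and it also raises its own brakes, the phosphatases DUSP6 and DUSP4 and the adaptors SPRY2, SPRY4 and SPRED1. In bladder cancer FGFR3 is often altered in luminal papillary tumours. RT112 is known to carry a fusion of FGFR3 to TACC3, a gene of the mitotic spindle.

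FGFR3 (ENSG00000068078) lies on chromosome 4 at 1793293 to 1808867 of GRCh38.p14, and TACC3 lies at 1720631 to 1745171 of the same chromosome, 48122 bases away. A fusion transcript that joins FGFR3 to TACC3 ends in the 3′ end of TACC3. A 3′ library therefore counts such a transcript under TACC3, and the count of FGFR3 holds transcripts that end in FGFR3 itself. TACC3 counts hold both fused and ordinary TACC3 transcripts, which this assay cannot separate. DUSP6 lies on chromosome 12 at 89347235 to 89352501 and PHLDA1 on the same chromosome at 76025447 to 76031776. EGR1 lies on chromosome 5 at 138465479 to 138469303, ETV4 on chromosome 17 at 43527846 to 43546340 and ETV5 on chromosome 3 at 186046314 to 186109089.

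The RefSeq promoter table of GRCh38.p14 held 7 of the 10 genes, namely FGFR3, DUSP6, SPRY2, SPRY4, SPRED1, PHLDA1 and EGR1. The 250 bases before the start site are shown 5′ to 3′ on the strand of the gene for FGFR3 and EGR1, the members that separated the lines in every library, and for DUSP6, which was lower in all libraries with the FOXA1 siRNA in both lines. Capitals mark CArG boxes, the motif that serum response factor binds. The FGFR3 window is chr4:1793043-1793292 on the plus strand, the DUSP6 window chr12:89352502-89352751 on the minus strand and the EGR1 window chr5:138465229-138465478 on the plus strand.
FGFR3: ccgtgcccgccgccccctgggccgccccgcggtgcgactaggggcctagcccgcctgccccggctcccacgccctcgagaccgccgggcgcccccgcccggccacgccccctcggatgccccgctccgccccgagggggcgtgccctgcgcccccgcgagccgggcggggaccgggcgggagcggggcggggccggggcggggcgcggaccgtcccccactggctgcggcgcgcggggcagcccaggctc
DUSP6: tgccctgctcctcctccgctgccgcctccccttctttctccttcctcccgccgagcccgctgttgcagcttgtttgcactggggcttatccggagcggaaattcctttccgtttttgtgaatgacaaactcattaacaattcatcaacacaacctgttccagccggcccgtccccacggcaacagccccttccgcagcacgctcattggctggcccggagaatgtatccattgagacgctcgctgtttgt
EGR1: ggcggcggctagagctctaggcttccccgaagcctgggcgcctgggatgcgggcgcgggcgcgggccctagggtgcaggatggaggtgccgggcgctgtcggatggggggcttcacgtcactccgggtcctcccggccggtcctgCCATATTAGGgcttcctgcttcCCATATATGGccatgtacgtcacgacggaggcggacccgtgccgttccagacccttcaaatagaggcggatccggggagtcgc
G and C made up 86.8% of the FGFR3 window, 57.2% of the DUSP6 window and 68.4% of the EGR1 window, against a median of 58% over all 35116 promoters of the table. Motifs were searched on both strands from 250 bases before to 50 bases after the start, and they could overlap. CArG boxes were found in 1 of the 7 members, EGR1, whose 2 boxes begin 105 and 83 bases before the start site, and in 1.29% of all promoters. The ETS letters CCGGAAG were in 0 of the 7 windows and in 10.3% of all promoters, the FOXA letters TGTTTAC in 0 of 7 and in 3.42%, and the AP-1 letters TGANTCA in 0 of 7 and in 7.71%. Each of these was 1 fixed run of letters (N for any base), so other forms of the motifs were not counted. A 0 therefore does not show that a member lacks such sites.

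The RT112 libraries held 4425404 to 5207195 counts each and the SCaBER libraries 4519668 to 6119210. Levels are given as CPM, the share of a library's counts scaled up by the usual factor and made comparable between libraries by TMM, on which 3 counts (the limit that a count of 0 allows) were worth 0.474 to 0.678 CPM. In the control libraries 11 of 11 tested luminal markers were lower in SCaBER than in RT112, and 12 of 14 basal/squamous markers were higher in SCaBER, while KRT16 was lower and TP63 did not pass the test. Of all genes tested, 16.4% were lower and 17.2% higher in SCaBER. KRT20, UPK3A and GRHL3 of the 14 luminal markers were too low to be tested. The markers tested thus differed between the lines in the direction of their labels, apart from KRT16 and TP63.

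The targeted genes were examined next. FOXA1 in RT112 stood at 41.9 and 41.4 CPM under siControl and at 6.86 and 9.56 CPM under siFOXA1 (log2 fold change -2.36, SE 0.38, adjusted p = 5.68e-05 by edgeR). SCaBER had little FOXA1, with 3.74 and 5.51 CPM under siControl and 0.818 and 1.36 CPM with siFOXA1. Both siFOXA1 libraries of SCaBER were below both controls, but the difference did not pass the test (log2 -2.09, SE 1.23, adjusted p = 0.272). ZBED2 fell with siZBED2-1 in RT112, from 22 and 16.9 CPM to 2.37 and 0 CPM (adjusted p = 0.00624), and in SCaBER, from 18.9 and 18.9 CPM to 2.41 and 7.38 CPM (adjusted p = 0.00848). With siZBED2-2 it stood at 7.33 and 6.29 CPM in RT112 and at 8.73 and 15.8 CPM in SCaBER, below the controls in every library, but with adjusted p of 0.903 and 0.844 neither passed the test. ZBED2 also fell with siFOXA1 alone in RT112, to 5.45 and 1.52 CPM (log2 -2.48, SE 0.84, adjusted p = 0.0325).

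With siFOXA1, FGFR3, DUSP6, ETV4, ETV5 and PHLDA1 were lower in RT112, and DUSP6, ETV4, PHLDA1 and EGR1 in SCaBER. The fall of FOXA1 itself did not pass the test in SCaBER. In RT112, 5 of the 9 members tested fell, and 11.9% of the 13264 genes tested fell in that comparison. In SCaBER, 4 of the 10 members fell, beside 9.12% of 13129 genes. All 9 calls were in the downward direction, and DESeq2 and limma each also called 5 members in RT112 and 4 in SCaBER, all lower. The median log2 fold change of the members was -1.31 in RT112 and -0.6 in SCaBER, where the median over all genes was -0.015 and -0.016. The members were chosen with earlier results of these data known, so these shares and medians describe the members and do not test them as a set. A wider list of 62 pathway genes, given below, had medians of 0.05 in RT112 and -0.03 in SCaBER. The libraries of siFOXA1 lay below both controls for 7 of 9 members in RT112, as they did for 31.1% of all genes, and for 6 of 10 in SCaBER, as for 27.5% of all genes. In SCaBER they lay above both controls for 2 members, DUSP4 and SPRY4, as for 27.8% of all genes.

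**Figure D1:**
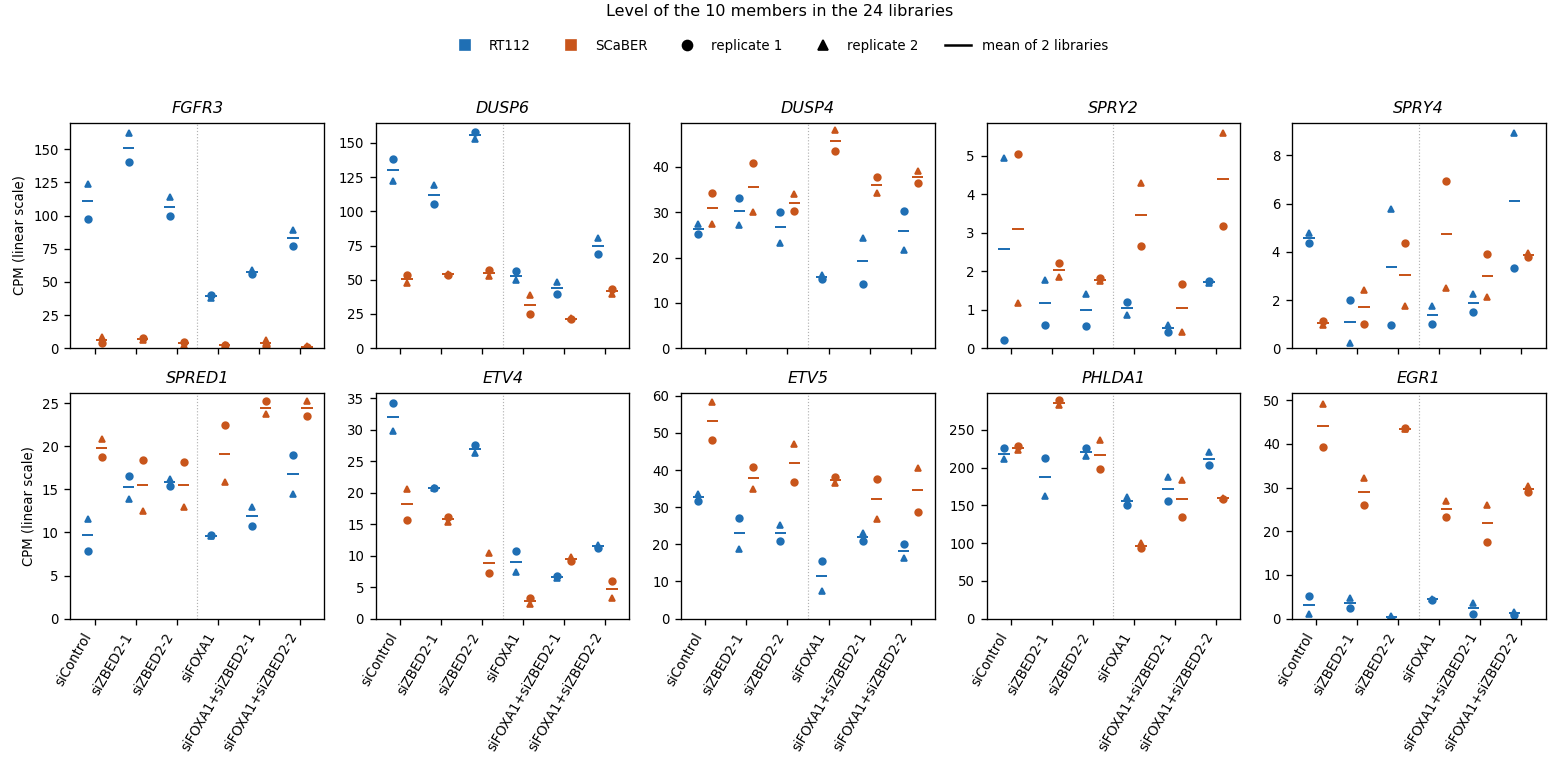
Level of each of the 10 genes in CPM (linear axis from 0, a scale of its own per gene) by siRNA treatment, with RT112 in blue and SCaBER in orange, circles for replicate 1, triangles for replicate 2 and bars for the mean of 2 libraries. FGFR3 was at 37.8 CPM or more in every RT112 library and at 8.46 CPM or less in every SCaBER library, and right of the dotted line, where the FOXA1 siRNA was present, FGFR3, DUSP6 and ETV4 were lower in all 6 RT112 libraries than in any of the 6 without it.

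Other features of the libraries moved with the FOXA1 siRNA, and their part in the results was not tested. In bulk RNA, fewer cells of a type and less RNA per cell cannot be told apart. Mitochondrial transcripts took 8.215% to 17.78% of counts in the 6 RT112 libraries without it and 18.57% to 22.73% in the 6 with it, while the SCaBER ranges were 9.55% to 11.98% and 9.295% to 12.93%. With siFOXA1 alone the SCaBER shares were 12.93% and 12.52%, the highest of the 12 SCaBER libraries, against 9.735% and 10.74% under siControl. Of the luminal markers, 7 of the 11 tested fell and 1 rose in RT112 with siFOXA1, with FOXA1 itself among them. Of all genes tested in RT112, 11.9% fell and 23.3% changed in either direction. The summed level of the 14 luminal markers ran from 7160 to 8160 CPM without and from 5420 to 7150 CPM with the FOXA1 siRNA, and KRT20 and UPK3A had a count of 0 in the siControl and siFOXA1 libraries. The 14 basal/squamous markers summed to 544 to 774 CPM without and 639 to 1020 CPM with it, with 2 of them at 0 in all libraries of both groups. Of the 10 tested, 3 rose and 1 fell with siFOXA1. In SCaBER, 2 of the 9 luminal markers tested fell with siFOXA1, and of the 14 basal/squamous markers 2 rose and 1 fell. Of all genes tested in SCaBER, 9.12% fell and 17.8% changed in either direction. The luminal markers summed there to 1200 to 1430 CPM without and 919 to 1320 CPM with the FOXA1 siRNA, and the basal/squamous markers to 3430 to 5610 CPM and 3620 to 5330 CPM.

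Transcripts that end in FGFR3 itself, which leave out fusions to TACC3, fell in RT112. Receptor protein was not measured. FGFR3 stood at 97.7 and 124 CPM under siControl and at 40.4 and 37.8 CPM under siFOXA1. Both siFOXA1 libraries were far below both controls, with a log2 difference of -1.52 (SE 0.19, adjusted p = 1.74e-06). The call held under all 12 alternatives, with values from -1.74 to -1.09. The value of -1.09 is that of the additive fit given below, which takes in the double knock-downs and was chosen after the data had been seen. In SCaBER, FGFR3 was at 3.92 and 8.46 CPM under siControl and at 2.25 and 2.71 CPM under siFOXA1. These are counts of 21 and 43 against 11 and 12, and although the groups did not overlap, the difference of -1.33 (SE 0.79) did not pass the test (adjusted p = 0.279). The siFOXA1 responses of FGFR3 in the lines were not shown to differ (difference 0.19 on the log2 scale, 95% interval -0.96 to 1.35, adjusted p = 0.983).

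TACC3 moved in the same direction. In RT112 it stood at 683 and 699 CPM under siControl and at 336 and 228 CPM under siFOXA1 (log2 -1.3, SE 0.15, adjusted p = 5.37e-07). In SCaBER it stood at 89.3 and 97.3 CPM under siControl and at 55.4 and 36.4 CPM under siFOXA1, a change of -1.04 (SE 0.2, adjusted p = 0.000241). TACC3 thus fell in both lines, and the difference between the lines in this response did not pass the test (0.27, SE 0.24, adjusted p = 0.687). How much of the RT112 TACC3 count comes from fused transcripts was not measured here.

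**Figure D2:**
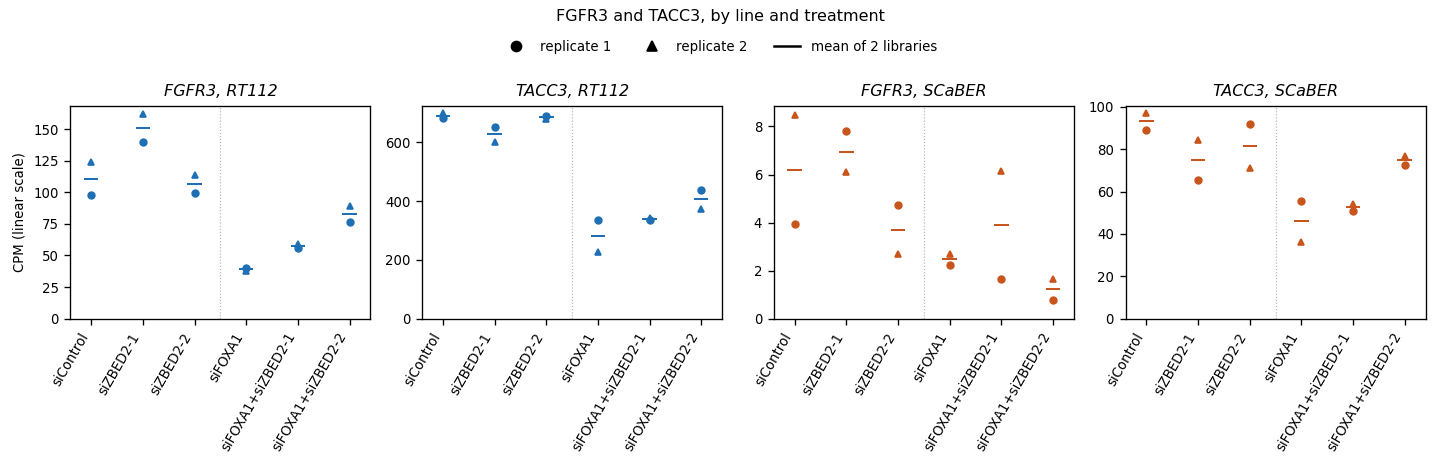
FGFR3 and TACC3 in CPM (linear axes from 0, a scale of their own per panel) by treatment in RT112 (blue) and SCaBER (orange), with circles for replicate 1, triangles for replicate 2 and bars for the mean of 2 libraries. In RT112 both genes were lower in all 6 libraries with the FOXA1 siRNA, where TACC3 ran from 228 to 439 CPM against 602 to 699 CPM in the 6 without it.

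Of the phosphatases, DUSP6 fell in both lines and DUSP4 passed the test in neither. DUSP6, which removes phosphate from ERK in the cytoplasm, stood at 138 and 122 CPM under siControl and at 56.1 and 49.8 CPM under siFOXA1 in RT112. This was a log2 difference of -1.31 (SE 0.18, adjusted p = 6.99e-06), called under all 12 alternatives. In SCaBER, DUSP6 stood at 53.8 and 47.4 CPM under siControl and at 24.7 and 39.1 CPM under siFOXA1, a change of -0.69 (SE 0.23, adjusted p = 0.0346), which was not shown to differ from that in RT112 (difference 0.63, SE 0.28, adjusted p = 0.268). The siFOXA1 libraries lay apart from each other there, and the call was lost without either control (adjusted p = 0.2 without replicate 1 and 0.0675 without replicate 2), without siFOXA1 replicate 1 (log2 -0.38, adjusted p = 0.411) and with only the groups compared in the fit (adjusted p = 0.0735). DUSP4, a nuclear phosphatase of the same family, stood at 25.3 and 27.4 CPM under siControl and 15.3 and 16.1 CPM under siFOXA1 in RT112 (log2 -0.76, SE 0.33, adjusted p = 0.0965). In SCaBER its siFOXA1 libraries lay above the controls, at 43.5 and 48.1 CPM against 34.2 and 27.5 CPM (log2 0.55, SE 0.24, adjusted p = 0.112). In each line the siFOXA1 libraries of DUSP4 did not overlap the controls.

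Of the adaptors that restrain the cascade, none tested passed with siFOXA1 in either line, and SPRY2 and SPRY4 were at low counts. SPRY2, which blocks growth factor signals upstream of RAF, lay between 0.218 and 4.96 CPM in RT112, where it was too low to be tested, and between 0.423 and 5.6 CPM in SCaBER, with overlapping groups under siControl and siFOXA1. SPRY4, of the same family, stood at 4.36 and 4.78 CPM under siControl and 1.01 and 1.74 CPM under siFOXA1 in RT112 (log2 -1.74, SE 1.15, adjusted p = 0.304). In SCaBER it stood at 1.12 and 0.983 CPM under siControl and 6.95 and 2.49 CPM under siFOXA1 (log2 2.12, SE 1.01, adjusted p = 0.156). Neither pair of SPRY4 groups overlapped, in opposite directions, at levels where a library held few reads. SPRED1, which recruits neurofibromin to RAS, stood at 7.85 and 11.6 CPM against 9.69 and 9.56 CPM in RT112 and at 18.7 and 20.8 CPM against 22.5 and 15.8 CPM in SCaBER. Its groups overlapped in both lines, with 95% intervals of the log2 fold change from -0.88 to 0.81 and from -0.7 to 0.58.

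Of the ETS factors of the PEA3 group, ETV4 fell in both lines and ETV5 in RT112. ETV4 stood at 34.2 and 29.8 CPM under siControl and at 10.7 and 7.39 CPM under siFOXA1 in RT112, a log2 difference of -1.83 (SE 0.35, adjusted p = 0.000369). In SCaBER it went from 15.7 and 20.6 CPM to 3.27 and 2.26 CPM, a change of -2.72 (SE 0.48, adjusted p = 7.7e-05). ETV4 was called under all 12 alternatives in both lines. ETV5 stood at 31.8 and 33.6 CPM under siControl and at 15.5 and 7.39 CPM under siFOXA1 in RT112 (log2 -1.52, SE 0.35, adjusted p = 0.00244). The lower of these libraries decides that call, since without siFOXA1 replicate 2 the change was -1.08 (adjusted p = 0.0741). Across all 12 RT112 libraries, 6 of them with the FOXA1 siRNA, the ETV5 change was -0.63 (adjusted p = 0.046). In SCaBER, ETV5 stood at 48 and 58.2 CPM against 38.2 and 36.6 CPM, which did not pass the test (log2 -0.52, SE 0.24, adjusted p = 0.14).

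PHLDA1, a pleckstrin homology protein whose transcript rises with ERK activity, fell in both lines. In SCaBER it stood at 228 and 223 CPM under siControl and at 93.4 and 99.9 CPM under siFOXA1 (log2 -1.24, SE 0.15, adjusted p = 1.2e-07), and the call held under all 12 alternatives. In RT112 it stood at 226 and 211 CPM against 151 and 161 CPM, a change of -0.5 (SE 0.15, adjusted p = 0.0195). That call was lost without siControl replicate 1 (adjusted p = 0.126), without siFOXA1 replicate 1 (0.0959) and without siFOXA1 replicate 2 (0.0647). Across all 12 RT112 libraries, 6 of them with the FOXA1 siRNA, the change was -0.23 (adjusted p = 0.0925). The difference between the lines in the PHLDA1 response was -0.74 (SE 0.22, adjusted p = 0.0606), and with the replicate number as a block its adjusted p was 0.0326.

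EGR1, an immediate early zinc finger factor, was low in RT112, at 5.23 and 1.1 CPM under siControl and 4.24 and 4.56 CPM under siFOXA1. These are counts of 24 and 6 against 21 and 21. In SCaBER it stood at 39.2 and 49.2 CPM under siControl and at 23.3 and 26.9 CPM under siFOXA1. Both siFOXA1 libraries were below the controls, with a log2 difference of -0.83 (SE 0.26, adjusted p = 0.0192). The call was lost without siControl replicate 2 (adjusted p = 0.214) and without siFOXA1 replicate 1 (adjusted p = 0.137).

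**Figure D3:**
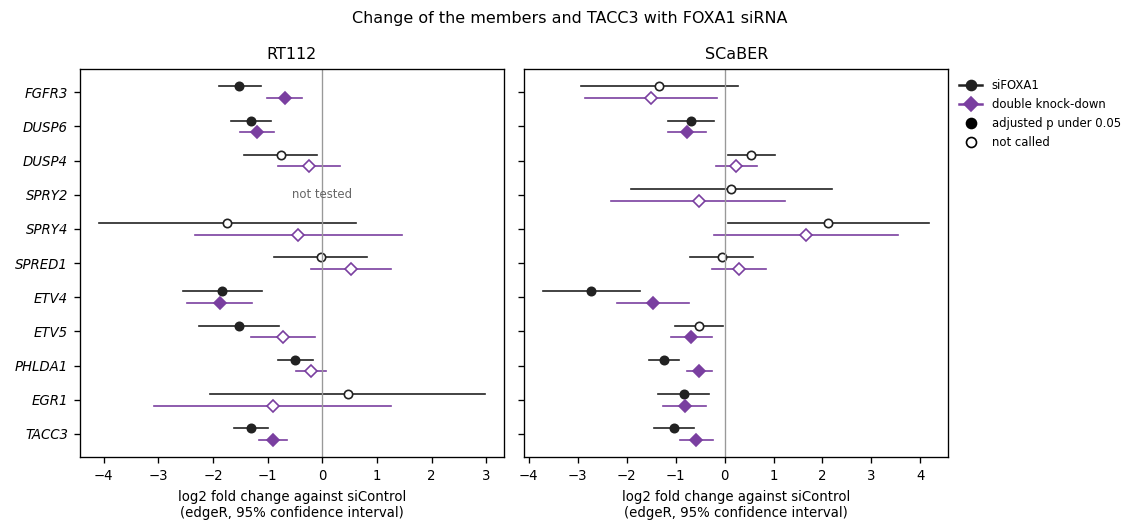
Log2 fold change against siControl with its 95% confidence interval (edgeR) for the 10 genes and TACC3, under siFOXA1 (circles) and under the mean of both double knock-downs (diamonds), with RT112 on the left and SCaBER on the right. Filled symbols have an adjusted p under 0.05. FGFR3 in RT112 moved from -1.52 under siFOXA1 to -0.69 under the double knock-down, while ETV4 there stayed at -1.83 and -1.88.

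Taking the double knock-downs with siFOXA1 gave 6 libraries with and 6 without the FOXA1 siRNA in each line. In RT112, 3 of the 9 members tested (FGFR3, DUSP6 and ETV4) were lower in all 6 libraries with it than in any of the 6 without, as were 5.54% of all genes. FGFR3 ran from 37.8 CPM (median 57.2) to 89.3 CPM with it, and from 97.7 CPM (median 119) to 162 CPM without. DUSP6 ran from 39.3 (median 52.9) to 80.8 CPM with it, and from 105 (median 130) to 158 CPM without. ETV4 ran from 6.48 (median 9.04) to 11.7 CPM with it, and from 20.8 (median 26.9) to 34.2 CPM without. In SCaBER, 2 of the 10 members (DUSP6 and PHLDA1) were lower in all 6, as were 3.35% of all genes. DUSP6 there ran from 21.5 (median 31.9) to 43.6 CPM with and from 47.4 (median 53.7) to 56.9 CPM without. PHLDA1 ran from 93.4 (median 146) to 184 CPM with and from 198 (median 232) to 289 CPM without.

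An additive fit of the same libraries, chosen after the data had been seen, called 4 members lower in each line. In RT112 these were FGFR3 (log2 -1.09, adjusted p = 6.32e-06), DUSP6 (-1.24, adjusted p = 1.05e-08), ETV4 (-1.57, adjusted p = 2.6e-06) and ETV5 (-0.63, adjusted p = 0.046), where 15.3% of all genes fell. In SCaBER they were DUSP6 (-0.79, adjusted p = 0.000432), ETV4 (-1.4, adjusted p = 0.00151), PHLDA1 (-0.84, adjusted p = 3.32e-06) and EGR1 (-0.6, adjusted p = 0.00449), where 9.86% of all genes fell. FGFR3 in SCaBER, at 0.796 to 6.13 CPM with and 2.68 to 8.46 CPM without, gave -1.22 (adjusted p = 0.052). FOXA1 itself fell in SCaBER in this fit (log2 -2.68, adjusted p = 0.0109). Its libraries were at few reads and overlapped, at 0 to 1.36 CPM with and 0.184 to 5.51 CPM without. The lowest without the FOXA1 siRNA was siZBED2-1 replicate 2, with a count of 1.

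The double knock-down asked whether ZBED2 depletion alters the FOXA1 response. Against siControl, with the mean of both double knock-downs, 3 of 9 members fell in RT112 (10.3% of all genes fell) and 5 of 10 in SCaBER (5.79% of all genes fell). These comparisons share their siControl libraries with those of siFOXA1 alone. In RT112 the changes were -0.69 for FGFR3 (SE 0.15, adjusted p = 0.00161), -1.2 for DUSP6 (SE 0.15, adjusted p = 1.54e-06) and -1.88 for ETV4 (SE 0.29, adjusted p = 2.51e-05). The FGFR3 call was lost without siControl replicate 2 (log2 -0.52, adjusted p = 0.113). In SCaBER the changes were -0.77 for DUSP6, -1.47 for ETV4, -0.68 for ETV5, -0.52 for PHLDA1 and -0.81 for EGR1, with adjusted p from 0.00424 for PHLDA1 to 0.0249 for ETV5. PHLDA1 kept its call under all 13 alternatives. Without siControl replicate 2, the calls of ETV4 (adjusted p = 0.136), ETV5 (0.311) and EGR1 (0.231) were lost, and without siControl replicate 1 that of DUSP6 (0.114). ETV5 also lost its call without siFOXA1+siZBED2-2 replicate 1 (0.106), without siFOXA1+siZBED2-1 replicate 2 (0.101) and with limma on TPM (0.0794), and EGR1 without siFOXA1+siZBED2-1 replicate 1 (0.0646).

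Set directly against siFOXA1 alone, 1 member was higher in the double knock-down in each line. In RT112 this was FGFR3, at 55.6 and 58.8 CPM with siZBED2-1 and 76.7 and 89.3 CPM with siZBED2-2, all above the 40.4 and 37.8 CPM of siFOXA1 alone. The log2 fold change was 0.82 (SE 0.17, adjusted p = 0.00929), in a comparison in which 1.32% of all genes rose. It was lost without siFOXA1 replicate 2 (adjusted p = 0.163) and with limma on TPM (0.212). In SCaBER it was PHLDA1, at 134 and 184 CPM with siZBED2-1 and 159 and 160 CPM with siZBED2-2, against 93.4 and 99.9 CPM. The change was 0.73 (SE 0.13, adjusted p = 0.000611), called under all 13 alternatives, beside 2.06% of all genes that rose. The targeted genes differed between these groups as follows. In RT112, ZBED2 stood at 1.91 and 1.42 CPM with siFOXA1+siZBED2-1 and 2.64 and 0.851 CPM with siFOXA1+siZBED2-2, against 5.45 and 1.52 CPM with siFOXA1 alone, so it was not shown to be lower in the double knock-down (log2 -1.03, SE 0.75, adjusted p = 0.573). FOXA1 there had a mean of 8.21 CPM with siFOXA1, 7.69 CPM with siFOXA1+siZBED2-1 and 12.8 CPM with siFOXA1+siZBED2-2 (log2 0.28 for the mean of both, adjusted p = 0.773). In SCaBER, ZBED2 was lower in the double knock-down than with siFOXA1 alone (log2 -1.85, SE 0.38, adjusted p = 0.00256), while FOXA1 gave -2.1 (SE 1.24, adjusted p = 0.438). Their part in the FGFR3 and PHLDA1 results was not tested. TACC3 in RT112, at 334 and 344 CPM with siZBED2-1 and 439 and 373 CPM with siZBED2-2, was not shown to differ from siFOXA1 alone (log2 0.4, SE 0.13, adjusted p = 0.123).

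On the control background the ZBED2 siRNAs changed no member past the test. With siZBED2-1, edgeR called 0 of 9 members in RT112, where it called 8.80% of all genes, and 0 of 10 in SCaBER, where it called 4.65%. With siZBED2-2 it called 0 members in either line, beside 0.166% and 0.625% of all genes, and 0 for the mean of both siRNAs, beside 2.37% and 1.83%. DESeq2 and limma also called 0 in each of these comparisons. At an unadjusted p under 0.05, 1 member passed with siZBED2-1 (21.1% of all genes), 1 with siZBED2-2 (5.76%) and 0 with the mean of both (12.9%) in RT112. In SCaBER these were 3 members (16.5%), 1 (7.56%) and 1 (11.5%). FGFR3 in RT112 stood at 140 and 162 CPM with siZBED2-1, above both controls, but the difference missed the test (log2 0.44, SE 0.18, adjusted p = 0.135). With siZBED2-2 it stood at 99.5 and 114 CPM (log2 -0.06, 95% interval -0.43 to 0.3).

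The ZBED2 siRNAs were also set against each other. Here too 0 members were called by edgeR in either line, beside 7.77% of all genes in RT112 and 4.01% in SCaBER, with DESeq2 and limma also at 0, and 3 members in RT112 (19.9% of all genes) and 2 in SCaBER (15.9%) at an unadjusted p under 0.05. FGFR3 in RT112 stood higher with siZBED2-1 than with siZBED2-2 by 0.5 (SE 0.18, adjusted p = 0.085), and with the replicate number as a block its adjusted p was 0.0495. The interaction, which subtracts the ZBED2 change on siControl from that on siFOXA1, gave 0 calls with edgeR in RT112 (0.611% of all genes called) and 0 in SCaBER (2.29% called), with 3 members (12.1% of all genes) and 2 members (13.1%) at an unadjusted p under 0.05. DESeq2 called 0 in RT112 and 1 in SCaBER, and limma 0 in both. The FGFR3 interaction in RT112 was 0.63 (95% interval 0.17 to 1.1, adjusted p = 0.23), so the rise over siFOXA1 alone was not shown to differ from the ZBED2 change on siControl. In SCaBER the PHLDA1 interaction was 0.6 (SE 0.18, adjusted p = 0.0728), which passed with the replicate number as a block (adjusted p = 0.0235) and with DESeq2 (0.0319), and that of ETV4 was 1.88 (SE 0.57, adjusted p = 0.0767).

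**Figure D4:**
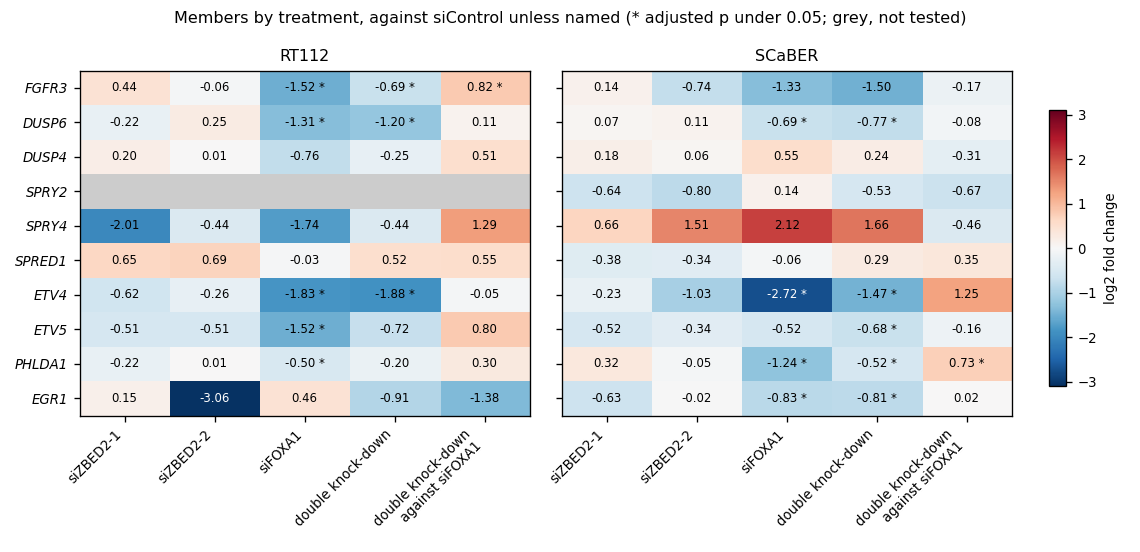
Log2 fold change of each of the 10 genes (rows) against siControl, and in the last column of each panel for the double knock-down against siFOXA1 alone, in RT112 (left) and SCaBER (right), with blue for lower, red for higher, grey for not tested and a star for an adjusted p under 0.05. The columns of the ZBED2 siRNAs hold no star, and the last columns hold 1 each, FGFR3 in RT112 (0.82) and PHLDA1 in SCaBER (0.73).

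Between the lines under siControl, 4 of 10 members differed, 2 lower and 2 higher in SCaBER. This is close to the background, since 33.6% of 14823 genes differed, 16.4% lower and 17.2% higher. FGFR3 was lower in SCaBER (log2 -4.16, SE 0.33, adjusted p = 4.45e-12), and DUSP6 gave -1.36 (SE 0.2, adjusted p = 9.8e-07). EGR1 was higher in SCaBER (log2 3.83, SE 0.51, adjusted p = 2.57e-07), and SPRED1 was higher by 1.02 (SE 0.35, adjusted p = 0.0249). The SPRED1 call was lost without any of RT112 siControl replicate 1 (adjusted p = 0.247), SCaBER siControl replicate 1 (0.0716) and SCaBER siControl replicate 2 (0.134), and with no filter on low counts (0.0545). TACC3 was also lower in SCaBER (log2 -2.89, SE 0.18, adjusted p = 6.23e-15). ETV4 gave -0.82 (adjusted p = 0.0806), ETV5 0.7 (adjusted p = 0.0618) and PHLDA1 0.05 (95% interval -0.26 to 0.36), none past the test.

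Over all 12 libraries of each line, FGFR3 lay between 37.8 and 162 CPM in RT112 (median 93.5) and between 0.796 and 8.46 CPM in SCaBER (median 3.32). EGR1 lay between 0 and 5.23 CPM in RT112 (median 1.93) and between 17.6 and 49.2 CPM in SCaBER (median 29.7). These were the members whose lines did not overlap, beside 8.29% of all genes for which SCaBER was lower and 9.78% for which it was higher. DUSP6 overlapped, at 39.3 to 158 CPM in RT112 and 21.5 to 56.9 CPM in SCaBER, and its siFOXA1 level in RT112 (52.9 CPM ± 4.48, SD, n = 2) lay within the spread of its siControl level in SCaBER (50.6 CPM ± 4.53, SD, n = 2).

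In order of level, the 6 RT112 groups stood above the 6 SCaBER groups for FGFR3. In RT112 the order ran from siZBED2-1 (151 CPM ± 16.1, SD, n = 2) over siControl (111 ± 18.4), siZBED2-2 (107 ± 10.1), siFOXA1+siZBED2-2 (83 ± 8.93) and siFOXA1+siZBED2-1 (57.2 ± 2.21) to siFOXA1 (39.1 ± 1.8). The libraries of siControl and siZBED2-2 overlapped, while those of the other neighbours did not. In SCaBER the means ran from 6.95 CPM ± 1.23 (SD, n = 2) with siZBED2-1 to 1.23 CPM ± 0.61 with siFOXA1+siZBED2-2. DUSP6 was highest in RT112 with siZBED2-2 (155 CPM ± 3.45, SD, n = 2) and lowest in SCaBER with siFOXA1+siZBED2-1 (21.6 CPM ± 0.227).

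Whether the lines differ in their response to siFOXA1 was tested in a fit of all libraries. Here edgeR called 0 of the 10 members, beside 2.58% of all genes, although 5 passed at an unadjusted p under 0.05 (15.1% of all genes), and DESeq2 called 3 while limma called 0. SPRY4, at few reads, gave 3.86 (SE 1.46, adjusted p = 0.172), and DUSP4 gave 1.32 (SE 0.4, adjusted p = 0.0685). The 3 that DESeq2 called were DUSP4 (adjusted p = 0.0122), PHLDA1 (0.0117) and SPRY4 (0.0485). DUSP4 was lower in RT112 and higher in SCaBER in every siFOXA1 library than in the controls, but neither change passed on its own. For the mean of both ZBED2 siRNAs, the lines differed in 0 members by edgeR, DESeq2 and limma, beside 0.0742% of all genes, with 1 at an unadjusted p under 0.05 (6.37% of all genes).

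The rest of the pathway was followed in a list of 62 genes, of which 52 were tested in RT112 and 54 in SCaBER. With siFOXA1, 9 rose and 7 fell in RT112 and 8 rose and 7 fell in SCaBER, against 23.3% and 17.8% of all genes that changed in either direction. The median log2 fold change of the list was 0.05 in RT112 and -0.03 in SCaBER. Of the ligands and receptors, 2 of 4 fell in RT112, and 1 of 6 fell and 1 rose in SCaBER. Of the relay genes, 3 of 21 rose and 2 fell in each line. Of the inhibitors, 2 of 13 rose in RT112 and 1 of 13 fell in SCaBER. Of the targets, 4 of 14 rose and 3 fell in each line.

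The named genes of the list show which parts moved. FGFBP1, a carrier that releases fibroblast growth factors, stood at 77.9 and 107 CPM under siControl and at 48.8 and 25 CPM under siFOXA1 in RT112 (log2 -1.33, adjusted p = 0.00022). In SCaBER it went from 367 and 407 CPM to 132 and 144 CPM (log2 -1.51, adjusted p = 2.39e-09). MAPK3, a kinase of the cascade, fell in RT112 (-1.18, adjusted p = 0.00227). In SCaBER it also stood lower, at 28.4 and 18.9 CPM under siControl and 16.6 and 11.3 CPM under siFOXA1. The ephrin receptor gene EPHA4 fell in RT112 (-1.22, adjusted p = 0.00763), and the cyclin gene CCND1 fell in SCaBER (-0.56, adjusted p = 0.00077). SPRY1, a Sprouty relative of SPRY2, fell in SCaBER from 7.47 and 3.54 CPM to 0.204 and 0.452 CPM, which are counts of 40 and 18 against 1 and 2 (adjusted p = 0.00336). In RT112 SPRY1 moved the other way, from 3.49 and 0.184 CPM to 15.5 and 13.3 CPM (adjusted p = 0.0108). These are counts of 16 and 1 against 77 and 61, so the controls lay far apart. The difference between the lines passed the test (adjusted p = 0.00199), with few reads in the RT112 controls and in the SCaBER siFOXA1 libraries.

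Of the named targets, PLAUR and IER2 rose in both lines. PLAUR, the urokinase receptor gene, rose in RT112 from 77.4 and 57 CPM to 138 and 159 CPM (log2 1.13, adjusted p = 6.8e-05) and in SCaBER from 100 and 115 CPM to 344 and 405 CPM (log2 1.78, adjusted p = 3.08e-11). The immediate early gene IER2 rose by 0.77 in RT112, with an adjusted p of 0.00101, and by 1 in SCaBER, with an adjusted p of 8.39e-06. JUN, a subunit of AP-1, rose in SCaBER (1.02, adjusted p = 1.6e-05). Its RT112 libraries also stood higher, at 341 and 361 CPM under siFOXA1 against 232 and 228 CPM under siControl. JUNB, also an AP-1 subunit, rose in SCaBER from 101 and 105 CPM to 168 and 163 CPM (0.67, adjusted p = 0.000757). In RT112 JUNB fell from 115 and 122 CPM to 75.3 and 86.7 CPM (-0.57, adjusted p = 0.0171), and the lines differed in this response (1.24, SE 0.21, adjusted p = 0.000548). The adaptor gene GRB2 and the phosphatase gene PTPN11, which couple receptors to RAS, rose in RT112 (0.69, adjusted p = 0.00143, and 0.72, adjusted p = 0.00135). In SCaBER GRB2 also stood higher, at 121 and 135 CPM under siControl and 169 and 182 CPM under siFOXA1. PTPN11 there overlapped, at 200 and 149 CPM against 188 and 169 CPM.

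Under siControl, 24 of the 58 list genes tested differed between the lines, 13 higher and 11 lower in SCaBER. Of all 14823 genes tested, 33.6% differed, 17.2% higher and 16.4% lower in SCaBER. FGF2, a ligand of the receptors, had a count of 0 in all 12 RT112 libraries and 73.6 to 162 CPM in SCaBER, so it was at least 133-fold higher in SCaBER under siControl when set against 3 counts per library. FOSL1, an AP-1 subunit, lay between 2.97 and 17.2 CPM in RT112 and between 179 and 336 CPM in SCaBER (log2 4.69 under siControl, adjusted p = 2.39e-16). CCND1 (1.58, adjusted p = 3.49e-11) and FGFBP1 (2.06, adjusted p = 1.25e-09) were also higher in SCaBER. The adaptor gene SHC1 (-1.41, adjusted p = 1.64e-09), EPHA4 (-2.96, adjusted p = 2.17e-05), the RAF inhibitor gene PEBP1 (-0.86, adjusted p = 4.5e-05) and PLCG1, a phospholipase that FGF receptors activate (-1.68, adjusted p = 0.000144), were lower.

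The genes whose 6 group means most resembled those of FGFR3 in RT112 were RNF130, DEF8 and BMP3, with a root mean square difference of 0.0912, 0.121 and 0.125 on the centred log2 CPM scale. FGFR3 itself spanned 1.92 on that scale, and the median difference over the 10081 genes compared was 0.693. For DUSP6 in RT112 they were PIR (0.0888), DTL (0.0956) and PBX3 (0.106), and in SCaBER RARA (0.0784), COX18 (0.104) and RHOBTB2 (0.12). For FGFR3 in SCaBER, whose mean was under 5 CPM, the nearest were NUDT19 (0.176), LINC00888 (0.181) and BCAS3 (0.192). The libraries behind each pair of profiles are the same, and the likeness is a description over 6 groups of 2 libraries.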

How the data were processed

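Libraries were made with a 3′ mRNA-seq kit. The authors deposited raw counts, whole reads per gene, made per the labels and the deposited settings by trimming with TrimGalore 0.6.2 (minimum quality 20, minimum length 10) and counting with STAR 2.6.1a on hg38 and GENCODE release 29. The study's methods name hg19 instead. The authors also deposited TPM, which scales by transcript length and served in 1 alternative alone.

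Counts were tested with edgeR 4.0.16 in R 4.3.3 (quasi-likelihood F-test, TMM, filterByExpr by group with minimum count 10 and minimum total count 15). Each line had a fit of its own over its 12 libraries (13264 genes in RT112, 13129 in SCaBER), and comparisons of lines used all 24 (14823 genes). A gene was called at a Benjamini-Hochberg adjusted p under 0.05 over all genes tested. Replicates varied by 25.8% (biological coefficient of variation) in RT112 and by 21.6% in SCaBER. Alternatives were DESeq2 1.42.0, limma 3.58.1 on log2(TPM + 1), other normalizations, no filter, a replicate block, only the groups compared, and each library left out. For siFOXA1 against siControl they also held the additive fit of 6 libraries with and 6 without the FOXA1 siRNA, chosen after the data had been seen. Each SE is the size of the log2 fold change over the square root of the quasi-likelihood F. The 95% intervals are built from it with a t quantile, the same for all genes of a fit. Both come from the edgeR fits and include the spread between libraries. The floor of 3 counts covers counting error only, as the sources name no molecular identifiers. The labels call replicates experiment batches and do not name separate cultures, so p-values measure the spread between these libraries, which may be technical.

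The labels' experiment batch number pairs libraries. Differences between replicates were compared for 15 pairs of groups in each line, and correlated at 0.0401 on average in RT112 and 0.0328 in SCaBER, with 0 of 15 pairs over 0.1, so the pairing comes from the labels alone. The members and gene lists were chosen with earlier results of these data known. Named genes were all members, TACC3, the targeted genes, the 4 list genes of smallest p in each direction among those called in each siFOXA1 comparison and between the lines, and the 3 nearest profiles of FGFR3 and DUSP6 among genes of at least 5 CPM. FRS3, SPRY3, EGR2 and EGR3 of the list were never tested. SPRY1, JUNB and JUN in RT112 and MAPK3, GRB2 and PTPN11 in SCaBER were named after their values were seen. So was the level of FGF2 and FOSL1 in all libraries. A gene that this rule names is not reported here.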

Additional observations from a re-analysis of the deposited data

How the results depend on the processing

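The number of members called was recounted 249 times, over all comparisons and their alternatives. In 229 recounts it stayed within 1.5 times of the number given, and in 20 it did not. Most comparisons called 0 members in the main fit. A 0 that stayed at 0 is among the 229, so that number does not measure how stable the calls were. Of the 282 values of called members under an alternative, 256 kept their call and 26 lost it, with 0 changes of sign. With the replicate block 1 member was called between siZBED2-1 and siZBED2-2 in RT112, 1 in the SCaBER interaction and 1 for the difference of the lines in the siFOXA1 response, each in place of 0, and the block changed no other call. For the double knock-down against siFOXA1 in RT112, limma on TPM called 0 members in place of 1. In the SCaBER interaction, library size alone, no filter on low counts and DESeq2 called 1 each. For the difference in the siFOXA1 response, no filter called 1 and DESeq2 3. Between the lines under siControl, only the groups compared called 7 in place of 4. The cause was not tested in any of these.

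Leaving out each library in turn, with the lone library of a group assumed to vary like the others, gave 3 to 5 calls for siFOXA1 in RT112, 2 to 4 in SCaBER, 2 to 3 for the RT112 double knock-down against siControl, 2 to 5 for the SCaBER double knock-down, 0 to 1 for the RT112 double knock-down against siFOXA1, and 0 to 1 for either interaction and for the difference in the siFOXA1 response. Between the lines under siControl it gave 3 to 4. Changes of sign were limited to members not called in the siFOXA1 comparison of that line. In RT112, leaving out a library moved SPRED1 between -0.28 and 0.27 and EGR1 between -0.27 and 1.96, with the sign change without siControl replicate 2 in each. Without SCaBER siControl replicate 2, SPRY2 gave -0.55 and SPRED1 0.02, and without SCaBER siFOXA1 replicate 2, SPRY2 gave -0.25 and SPRED1 0.16. Without SCaBER siFOXA1 replicate 1, SPRED1 gave -0.33. Over 6 libraries with and 6 without the FOXA1 siRNA, an alternative chosen after seeing the data, SPRED1 in SCaBER gave 0.42. Depth limits SPRY2, SPRY4, FGFR3 in SCaBER and EGR1 in RT112, where single libraries held few reads.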
